A study of Homo sapiens with 12 samples.

Results

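The 10 genes described here regulate the unfolded protein response and the integrated stress response: ATF4, ATF3, DDIT3, TRIB3, ASNS, CHAC1, PPP1R15A, XBP1, ATF6 and ERN1. They were chosen by name from the 18418 genes of the arrays, and all 10 were measured. Each was read from the probe set that carried its symbol alone and had the highest mean level over all arrays. The 12 arrays held RNA of Calu-3, a long-established line of human airway epithelium, after transfection of RNA oligonucleotides with the lipid reagent lipofectamine RNAiMAX. Of these, 3 arrays carried cells given a miR-138 mimic, 3 carried cells given a SIN3A siRNA, which is a small interfering RNA against the corepressor scaffold SIN3A, and 6 carried cells given NC1, a scrambled control RNA. The labels call the arrays biological replicates without naming separate cultures, so a p-value here reflects only how far these arrays scatter, and that scatter may be technical. All groups are the same transfected line, with no untransfected cells and no cells under a known stress inducer analysed here, and neither a dose nor a time after transfection is given. Calu-3 is the cell line in the labels, but the note on RNA extraction mentions primary cultures.

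When unfolded proteins gather in the endoplasmic reticulum (ER), 3 membrane sensors respond: ERN1, also called IRE1, whose nuclease splices the XBP1 messenger RNA, ATF6, which is cut in the Golgi to free a transcription factor, and the kinase PERK. PERK and the kinases GCN2, PKR and HRI each phosphorylate eIF2α, which slows translation in general while the transcription factor ATF4 is translated more, and this shared arm is the integrated stress response. ATF4 raises genes for amino acid supply and, with prolonged stress, DDIT3 and other regulators, and PPP1R15A closes the loop by bringing a phosphatase to eIF2α. The arrays read the total RNA of each gene, so splicing of XBP1, translation of ATF4, cleavage of ATF6 and phosphorylation of eIF2α were not measured. In bulk RNA, fewer cells of a type and less RNA per cell cannot be told apart.

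The delivered microRNA is shown because it is what the mimic arrays received and the siRNA and NC1 arrays did not. The labels do not say which arm of the hairpin the mimic copies. RefSeq (GRCh38.p14) gives the 5p arm from MIR138-1 at chr3:44114234-44114256 and from MIR138-2 at chr16:56858527-56858549, both on the plus strand, with the same 23 bases. Capitals mark the seed, bases 2 to 8.
hsa-miR-138-5p: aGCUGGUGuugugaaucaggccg

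Promoters of 4 of the genes are shown because the genes are known for the elements they carry. The RefSeq windows run from 250 bases before to 50 bases after an annotated start (GRCh38.p14), and all 10 genes had at least 1 window, 17 in all. The letters searched on both strands were TGATGNAA, the C/EBP-ATF response element that ATF4 binds with a C/EBP partner, TGACGTCA, the cyclic AMP response element, and CCAAT followed after 9 bases by CCACG, the ER stress response element. The motifs do not overlap each other in the windows printed. In capitals are the matches: 1 C/EBP-ATF element at -68 to -61 from the start of ASNS, 1 on the other strand at -209 to -202 from the start of CHAC1, 1 cyclic AMP response element, the same site on both strands, at -58 to -51 from the start of PPP1R15A, and 1 ER stress response element at -52 to -34 from the start of XBP1.
ASNS, chr7:97872359-97872658, minus strand: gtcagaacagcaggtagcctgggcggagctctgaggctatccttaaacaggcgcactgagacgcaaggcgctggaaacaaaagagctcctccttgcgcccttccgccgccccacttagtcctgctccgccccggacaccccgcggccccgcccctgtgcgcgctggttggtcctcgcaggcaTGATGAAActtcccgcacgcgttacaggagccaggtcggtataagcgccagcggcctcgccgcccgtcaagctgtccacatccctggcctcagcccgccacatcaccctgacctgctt
CHAC1, chr15:40953221-40953520, plus strand: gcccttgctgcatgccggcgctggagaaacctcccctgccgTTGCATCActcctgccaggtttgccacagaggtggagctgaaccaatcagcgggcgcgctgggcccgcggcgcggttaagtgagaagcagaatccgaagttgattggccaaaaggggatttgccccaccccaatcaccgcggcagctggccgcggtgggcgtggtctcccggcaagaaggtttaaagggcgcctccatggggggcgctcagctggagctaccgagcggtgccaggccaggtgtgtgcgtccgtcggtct
PPP1R15A, chr19:48872171-48872470, plus strand: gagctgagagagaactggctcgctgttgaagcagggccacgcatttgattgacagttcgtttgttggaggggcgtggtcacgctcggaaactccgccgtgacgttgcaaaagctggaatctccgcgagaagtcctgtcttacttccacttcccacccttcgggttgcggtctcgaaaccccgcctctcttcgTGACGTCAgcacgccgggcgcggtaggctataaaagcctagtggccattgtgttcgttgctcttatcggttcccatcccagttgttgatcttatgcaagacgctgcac
XBP1, chr22:28800520-28800819, minus strand: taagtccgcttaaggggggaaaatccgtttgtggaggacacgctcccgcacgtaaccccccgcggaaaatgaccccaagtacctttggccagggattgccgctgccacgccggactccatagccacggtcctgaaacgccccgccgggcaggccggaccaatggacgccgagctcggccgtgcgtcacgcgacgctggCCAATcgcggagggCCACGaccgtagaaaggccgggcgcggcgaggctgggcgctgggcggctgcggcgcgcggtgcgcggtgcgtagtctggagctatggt
The C/EBP-ATF letters were found in 3 of the 10 genes, ASNS, ATF3 and CHAC1, in 1 window of each, and in 3.62% of all 35116 windows. The members are counted by gene, over their 17 windows, and the shares are by window. The cyclic AMP letters were found in PPP1R15A and in 1.85% of all windows, and the ER stress letters in XBP1 and in 0.0769% of all windows. A match describes the letters and is not a binding site, and these arrays did not measure binding.

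The deposited log2 values had array medians of 5.09 to 5.16, and arrays correlated over genes with r between 0.967 and 0.995. SIN3A was 5.93, 6.05 and 6.25 on the mimic arrays, 6.17, 5.88 and 6.03 on the siRNA arrays, 7.34, 7.16 and 7.11 on NC1 4 to 6, and 6.79, 6.71 and 6.36 on NC1 1 to 3. It fell in both treated groups, to 56.1% of the NC1 level with the mimic (limma adjusted p = 0.0304) and to 54.2% with the siRNA (adjusted p = 0.0111). The NC1 arrays themselves differed: 1850 of 18418 genes were called between replicates 4 to 6 and replicates 1 to 3, SIN3A among them, so each treatment is compared below with all NC1 arrays and with each part of them. By mean correlation the mimic arrays lay closer to NC1 4 to 6 (0.985, against 0.979 with NC1 1 to 3). The siRNA arrays lay about as close to either part (0.978 with NC1 4 to 6 and 0.980 with NC1 1 to 3). They lay closer to the mimic arrays (0.984), and the control parts correlated with each other at 0.976. The labels name no batch and do not say why the parts differ. Over all 7 epithelial marker genes the mean level lay between 8.17 and 8.26 on mimic arrays, 8.24 and 8.37 on siRNA arrays and 8.09 and 8.29 on NC1 arrays, and fibroblast, leukocyte and endothelial lists had means of 4.38 to 5.22 on every array. These are list means, and within the leukocyte list LYZ was high, at 8.37 to 9.14 over the arrays.

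Against all 6 NC1 arrays, none of the 10 genes was called with either treatment. A gene was called where its adjusted p from limma, over all 18418 genes, was under 0.05. With the mimic 0 of 10 were called, against 1.04% of all genes, and 1 of 10 had an unadjusted p under 0.05. With the siRNA 0 of 10 were called, against 4.01% of all genes, and 0 of 10 had an unadjusted p under 0.05. The median log2 difference of the 10 genes was 0.06 with the mimic and 0.07 with the siRNA, and the median over all genes was -0.01 in each. Between the treatments directly, mimic against siRNA, 0 of 10 were called against 1.57% of all genes. There 2 of 10, ATF4 and PPP1R15A, had an unadjusted p under 0.05. Of all 18418 genes, 2087 had an unadjusted limma p under 0.05 with the mimic, 3016 with the siRNA and 2507 between the treatments. In a simulation of the siRNA comparison, 98% of genes with a log2 difference of 1 and 67% of those with 0.5 were called, and smaller differences were not simulated. In the siRNA comparison the SE ran from 0.08 for ERN1 to 0.19 for DDIT3, against a median of 0.10 over all genes. The simulated shares therefore need not hold for each of the 10 genes, nor for the mimic comparison.

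**Figure D1:**
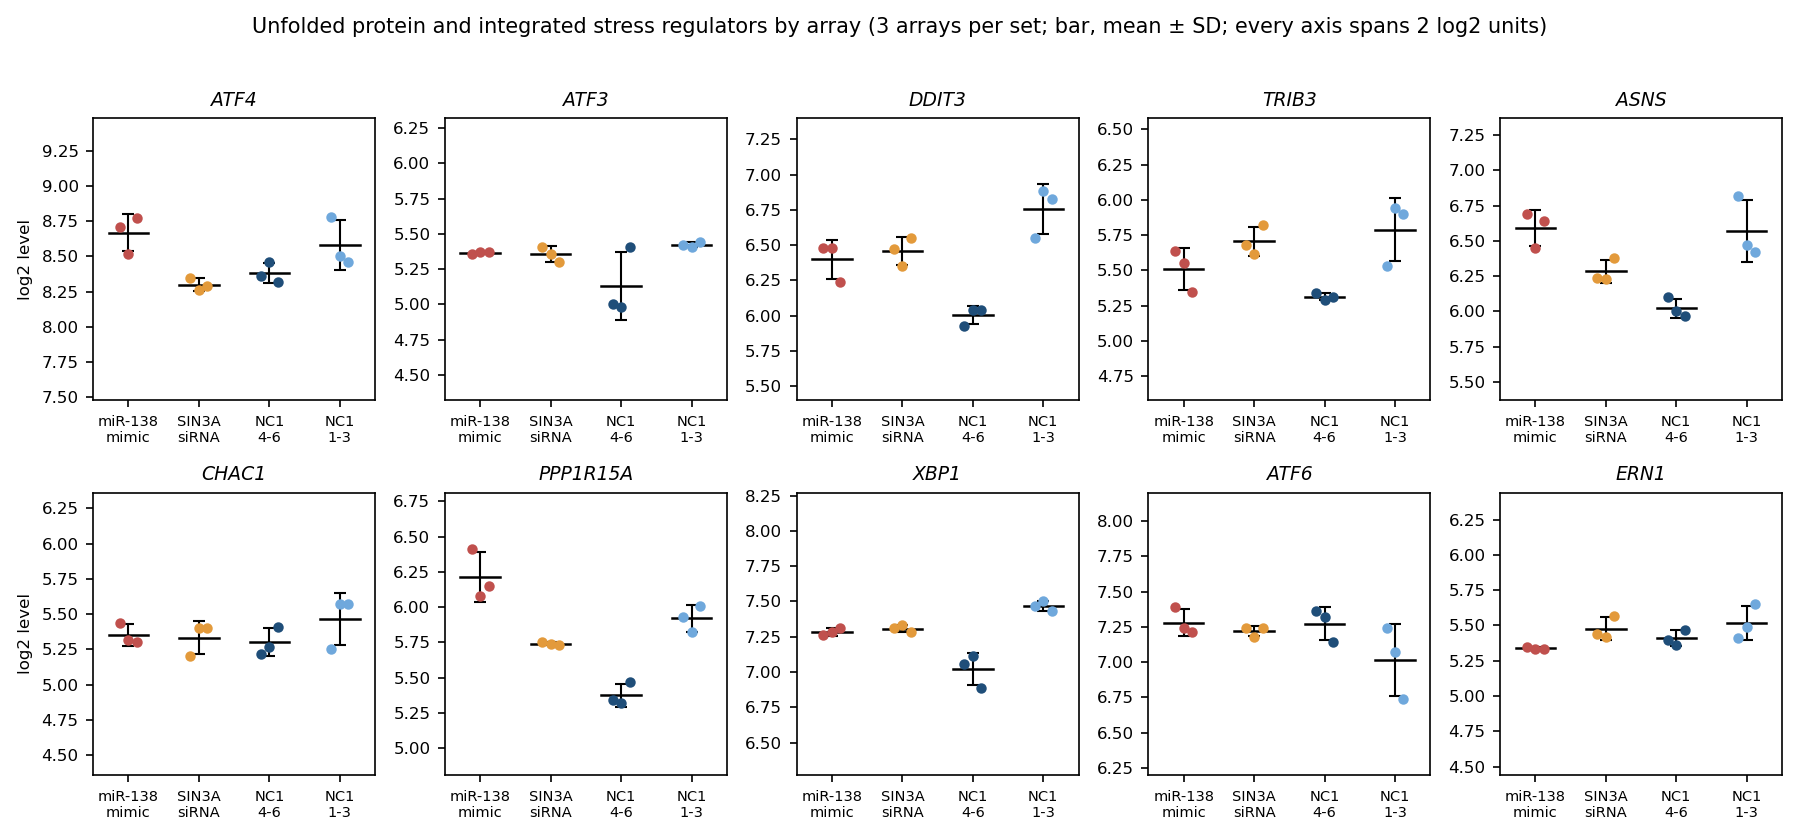
Log2 level of each of the 10 genes on every array, with the groups in the order miR-138 mimic, SIN3A siRNA, NC1 4 to 6 and NC1 1 to 3. Points are arrays, and bars are group means ± SD (n = 3 each). For PPP1R15A, ASNS, DDIT3, XBP1 and TRIB3 all NC1 4 to 6 points lie below all points of the other groups, for TRIB3 by a narrow gap. The share of all genes that separate in this way is not given here. For PPP1R15A the mimic points lie above all others.

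The separation lay inside the control. In NC1 4 to 6 against NC1 1 to 3, DDIT3, ASNS, PPP1R15A, TRIB3 and XBP1 were lower and none was higher: 5 of 10 were called, against 10% of all genes. The median difference of the 10 was -0.37 on the log2 scale, against -0.02 over all genes. The members were chosen with it known that the control parts differ, so the count is a description. The size of a difference from NC1, and for some genes its sign, changed with the part set against the treatment. Comparisons that use NC1 4 to 6 share those 3 arrays, and comparisons that use NC1 1 to 3 share the others.

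PPP1R15A, also called GADD34, is the stress-induced subunit that directs a phosphatase to eIF2α (chromosome 19, 48872421 to 48876058). Its log2 level was 6.41, 6.08 and 6.15 on the mimic arrays, 5.75, 5.74 and 5.73 on the siRNA arrays, 5.34, 5.32 and 5.47 on NC1 4 to 6, and 5.93, 5.82 and 6.01 on NC1 1 to 3. The 4 sets of arrays did not overlap, with the mimic arrays highest, then NC1 1 to 3, then the siRNA arrays, and NC1 4 to 6 lowest. Against NC1 4 to 6 it rose 1.79-fold with the mimic (log2 difference 0.84, SE 0.10, limma adjusted p = 7.33e-05), and this call held without each array in turn (0.74 to 0.90). The same mimic arrays differed from NC1 1 to 3 by 0.29 (SE 0.10, adjusted p = 0.0784) and, against all NC1 arrays, by 0.57 (SE 0.15, adjusted p = 0.0969). The last of these passed the threshold only without NC1 3 (0.64, adjusted p = 0.0328). PPP1R15A rose 1.28-fold with the siRNA against NC1 4 to 6 (log2 difference 0.36, SE 0.10, adjusted p = 0.0233), a call lost without any siRNA array, NC1 4 or NC1 5 (highest adjusted p = 0.099). The siRNA arrays differed from NC1 1 to 3 by -0.18 (SE 0.10, adjusted p = 0.325), so the sign depended on the control part. The direct difference, mimic minus siRNA, was 0.48 (95% interval 0.11 to 0.84, adjusted p = 0.203). PPP1R15A was 1.46-fold lower in NC1 4 to 6 than in NC1 1 to 3 (log2 difference -0.54, SE 0.10, adjusted p = 0.00157).

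ASNS, asparagine synthetase, is a target of ATF4 that makes asparagine when amino acids are short (chromosome 7, 97851677 to 97928441), and its window above holds the C/EBP-ATF letters. Its log2 level was 6.69, 6.45 and 6.64 on the mimic arrays, 6.24, 6.23 and 6.38 on the siRNA arrays, 6.10, 6.00 and 5.97 on NC1 4 to 6, and 6.82, 6.47 and 6.42 on NC1 1 to 3. Every mimic array lay above every siRNA array and every array of NC1 4 to 6, and the mimic arrays overlapped NC1 1 to 3. ASNS rose 1.48-fold with the mimic against NC1 4 to 6 (log2 difference 0.57, SE 0.11, adjusted p = 0.00606), which held without each array in turn (0.52 to 0.64). The mimic differed from NC1 1 to 3 by 0.02 (95% interval -0.21 to 0.25, adjusted p = 0.944), and against all NC1 arrays it was 0.29 (SE 0.16, adjusted p = 0.514). The siRNA arrays lay above NC1 4 to 6 by 0.26 (adjusted p = 0.166) and differed from NC1 1 to 3 by -0.29 (adjusted p = 0.148), neither past the threshold. ASNS was 1.46-fold lower in NC1 4 to 6 than in NC1 1 to 3 (log2 difference -0.55, SE 0.11, adjusted p = 0.00361).

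ATF4 itself is the transcription factor of the shared arm (chromosome 22, 39520559 to 39522686). It was 8.71, 8.52 and 8.77 on the mimic arrays, 8.35, 8.26 and 8.29 on the siRNA arrays, 8.36, 8.46 and 8.32 on NC1 4 to 6, and 8.78, 8.50 and 8.46 on NC1 1 to 3. The mimic arrays lay above all siRNA arrays and all arrays of NC1 4 to 6, while the siRNA arrays overlapped NC1 4 to 6 and lay below NC1 1 to 3. No comparison of ATF4 passed the threshold: mimic minus siRNA was 0.37 (95% interval 0.12 to 0.61, adjusted p = 0.129), mimic minus NC1 4 to 6 was 0.29 (adjusted p = 0.174), and siRNA minus NC1 1 to 3 was -0.28 (adjusted p = 0.13). A second ATF4 probe set did not show the separation of the treatments. It read 6.27, 6.25 and 6.29 on the mimic arrays and 6.21, 6.32 and 6.24 on the siRNA arrays, a difference of 0.01 (adjusted p = 0.98).

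DDIT3, also called CHOP, is a transcription factor of prolonged ER stress that is linked to cell death (chromosome 12, 57516588 to 57520517). It was 6.48, 6.48 and 6.24 on the mimic arrays, 6.47, 6.35 and 6.55 on the siRNA arrays, 5.93, 6.04 and 6.04 on NC1 4 to 6, and 6.55, 6.88 and 6.83 on NC1 1 to 3. Both treated groups lay between the control parts, above all arrays of NC1 4 to 6. DDIT3 was 1.68-fold lower in NC1 4 to 6 than in NC1 1 to 3 (log2 difference -0.75, SE 0.10, adjusted p = 0.000224), which held without each array in turn (-0.85 to -0.68). With the mimic the difference was 0.39 against NC1 4 to 6 (SE 0.10, adjusted p = 0.0502). Against NC1 1 to 3 DDIT3 fell with the mimic by 0.35 on the log2 scale (SE 0.10, adjusted p = 0.0484), a call lost when any array except NC1 1 was left out (highest adjusted p = 0.213). With the siRNA DDIT3 rose 1.37-fold against NC1 4 to 6 (log2 difference 0.45, SE 0.10, adjusted p = 0.00908). The siRNA difference from NC1 1 to 3 was -0.29 (adjusted p = 0.124), and it passed the threshold only without NC1 1 (-0.40). Mimic minus siRNA was -0.06 (95% interval -0.53 to 0.41).

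TRIB3, a pseudokinase induced by ATF4 and DDIT3 that damps ATF4 activity, lies on chromosome 20, 380760 to 397559. Its log2 level was 5.64, 5.55 and 5.35 on the mimic arrays, 5.68, 5.62 and 5.82 on the siRNA arrays, 5.34, 5.29 and 5.31 on NC1 4 to 6, and 5.53, 5.94 and 5.90 on NC1 1 to 3. NC1 4 to 6 lay below every other array, by a narrow gap to mimic 3, and the other groups overlapped. TRIB3 was 1.39-fold lower in NC1 4 to 6 than in NC1 1 to 3 (log2 difference -0.48, SE 0.11, adjusted p = 0.0121), a call lost without NC1 2 or without NC1 5 (highest adjusted p = 0.0601). It rose 1.31-fold with the siRNA against NC1 4 to 6 (log2 difference 0.39, SE 0.11, adjusted p = 0.033), and that call was lost without any of the 6 arrays compared (highest adjusted p = 0.141). The mimic difference was 0.20 against NC1 4 to 6 (adjusted p = 0.569) and -0.28 against NC1 1 to 3 (adjusted p = 0.156). The latter passed the threshold only without NC1 1 (-0.41).

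ATF3, a stress-induced repressor of transcription downstream of ATF4 (chromosome 1, 212565407 to 212620777), was 5.36, 5.37 and 5.37 on the mimic arrays, 5.41, 5.36 and 5.30 on the siRNA arrays, 5.00, 4.98 and 5.41 on NC1 4 to 6, and 5.42, 5.41 and 5.44 on NC1 1 to 3. NC1 4 and 5 were low and NC1 6 was level with the other groups. With all arrays, no comparison of ATF3 passed the threshold, and NC1 4 to 6 against NC1 1 to 3 gave -0.29 (SE 0.10, adjusted p = 0.0954). Without NC1 6, ATF3 passed in 3 comparisons: the mimic against NC1 4 to 6 (0.37, against 0.23 with all arrays), the siRNA against NC1 4 to 6 (0.36, against 0.22) and NC1 4 to 6 against NC1 1 to 3 (-0.43). CHAC1, an enzyme that breaks down glutathione and is a target of ATF4 (chromosome 15, 40953471 to 40956512), was 5.44, 5.32 and 5.30 on the mimic arrays, 5.20, 5.40 and 5.40 on the siRNA arrays, 5.22, 5.27 and 5.41 on NC1 4 to 6, and 5.25, 5.57 and 5.57 on NC1 1 to 3. All its groups overlapped, and its differences in the comparisons with NC1 lay between -0.13 and 0.05.

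XBP1 is the transcription factor whose RNA the sensor ERN1 splices (chromosome 22, 28794560 to 28800569). It was 7.26, 7.28 and 7.31 on the mimic arrays, 7.31, 7.33 and 7.28 on the siRNA arrays, 7.06, 7.11 and 6.89 on NC1 4 to 6, and 7.47, 7.50 and 7.43 on NC1 1 to 3. The treated groups overlapped each other and lay between the control parts, overlapping neither. XBP1 was 1.36-fold lower in NC1 4 to 6 than in NC1 1 to 3 (log2 difference -0.45, SE 0.08, adjusted p = 0.00212). It rose 1.22-fold with the siRNA against NC1 4 to 6 (log2 difference 0.29, SE 0.08, adjusted p = 0.0336), and this call was lost without any siRNA array, NC1 4 or NC1 6 (highest adjusted p = 0.117). The mimic differed by 0.26 from NC1 4 to 6 (adjusted p = 0.118) and by -0.18 from NC1 1 to 3 (adjusted p = 0.207).

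With all arrays, no comparison of the membrane sensors ATF6 and ERN1 passed the threshold. ATF6 (chromosome 1, 161766320 to 161964070) was 7.39, 7.24 and 7.21 on the mimic arrays, 7.24, 7.18 and 7.24 on the siRNA arrays, 7.36, 7.32 and 7.14 on NC1 4 to 6, and 7.24, 7.07 and 6.74 on NC1 1 to 3. NC1 3 was the lowest array, and the groups overlapped. ERN1 (chromosome 17, 64039142 to 64130144) was 5.35, 5.33 and 5.33 on the mimic arrays, 5.44, 5.42 and 5.57 on the siRNA arrays, 5.40, 5.36 and 5.47 on NC1 4 to 6, and 5.41, 5.49 and 5.65 on NC1 1 to 3. Its mimic arrays lay below all others, and the difference from all NC1 arrays was -0.13 (SE 0.08, adjusted p = 0.602). ATF6 differed by 0.27 in the mimic against NC1 1 to 3 (SE 0.11, adjusted p = 0.183). Without NC1 1, ATF6 passed in that comparison (0.38) and in NC1 4 to 6 against NC1 1 to 3 (0.37).

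Counted over the 10 genes, the comparison with NC1 4 to 6 gave higher levels and that with NC1 1 to 3 did not. Against NC1 4 to 6 the mimic gave 2 called genes, both higher, PPP1R15A and ASNS, against 3.49% of all genes, and a median of 0.25. Against NC1 4 to 6 the siRNA gave 4 called genes, all higher, DDIT3, TRIB3, PPP1R15A and XBP1, against 11.4% of all genes, and a median of 0.24. Against NC1 1 to 3 the mimic gave 1 called gene, DDIT3, which was lower, against 8.55% of all genes, and a median of -0.08. Against NC1 1 to 3 the siRNA gave 0 called genes against 5.70% of all genes, and a median of -0.14. At an unadjusted limma p under 0.05, that comparison had 3 of 10 genes, against 3512 of all 18418. The siRNA against NC1 4 to 6 had 6 of 10 (4086 of all genes). The mimic had 6 of 10 against NC1 4 to 6 (2259) and 5 of 10 against NC1 1 to 3 (3986). The comparison of the NC1 parts had 7 of 10 (4162).

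**Figure D2:**
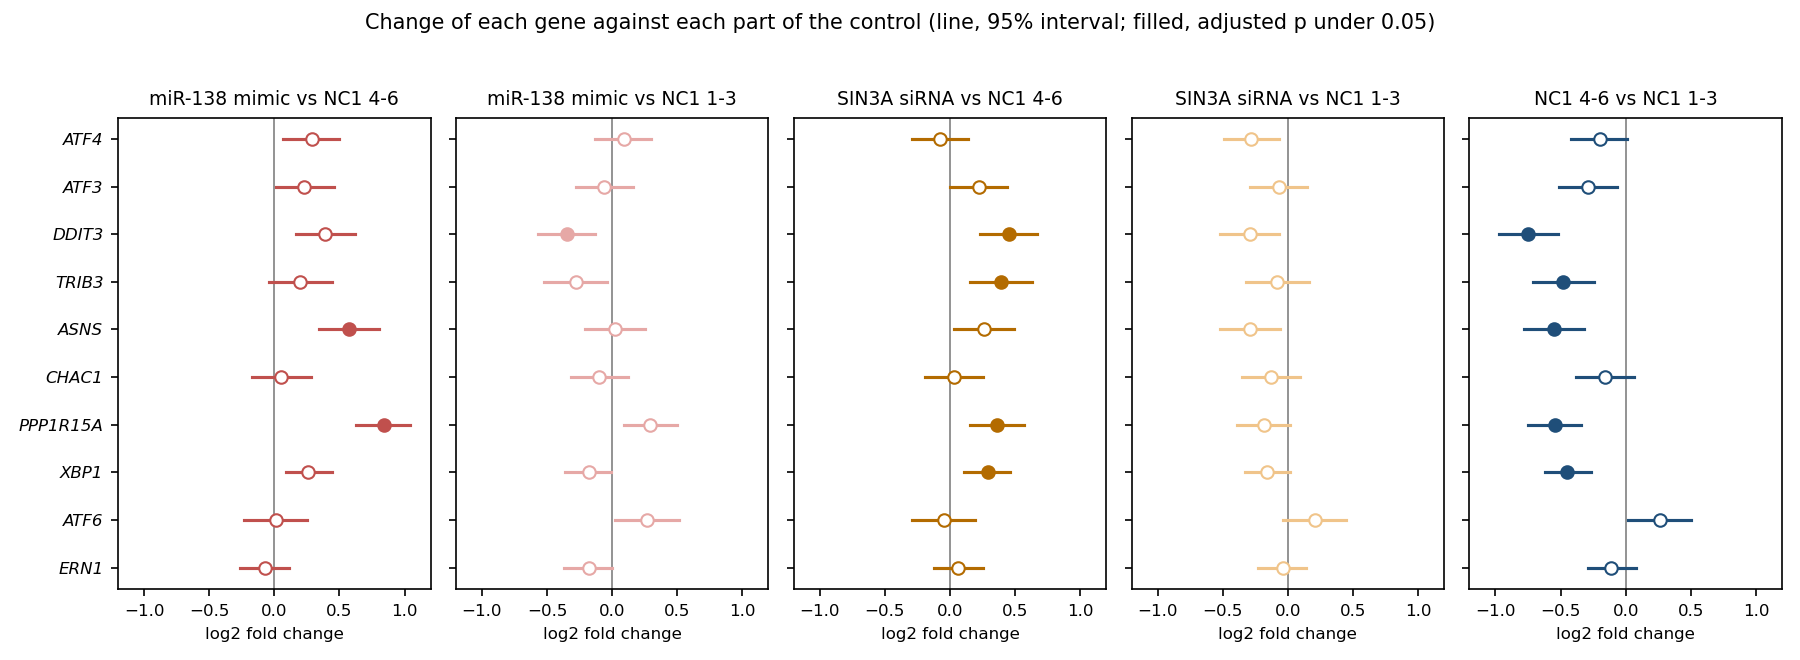
Log2 difference of each of the 10 genes with its 95% interval in the mimic and siRNA comparisons with each part of NC1 and in the comparison of the NC1 parts. Filled points passed the limma threshold. PPP1R15A and ASNS are filled for the mimic against NC1 4 to 6, DDIT3 is filled below 0 for the mimic against NC1 1 to 3, 4 genes are filled for the siRNA against NC1 4 to 6, and 5 are filled below 0 for NC1 4 to 6 against NC1 1 to 3.

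The treatments were also set against each other with each measured from a different NC1 part, the mimic from NC1 4 to 6 and the siRNA from NC1 1 to 3. This pairing is not in the labels and was taken up with the arrays' values known. On that footing PPP1R15A differed by 1.02 (SE 0.14, adjusted p = 0.000467), ASNS by 0.86 (SE 0.15, adjusted p = 0.00678) and DDIT3 by 0.69 (SE 0.15, adjusted p = 0.0226), all higher with the mimic. ATF4 gave 0.57 (SE 0.14, adjusted p = 0.0515) and XBP1 0.42 (SE 0.12, adjusted p = 0.0825). The count was 3 of 10 against 2.09% of all genes. Compared directly, with no control in between, mimic minus siRNA was 0.48 for PPP1R15A, 0.31 for ASNS (adjusted p = 0.507), -0.06 for DDIT3, 0.37 for ATF4 and -0.03 for XBP1, none of them called. For each gene the rest of the value is the difference between the control parts, which was -0.54 for PPP1R15A, -0.55 for ASNS, -0.75 for DDIT3, -0.20 for ATF4 and -0.45 for XBP1 in NC1 4 to 6 against NC1 1 to 3.

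Among the kinases, the phosphatase and the translation factors around eIF2, EIF2AK2 rose with the mimic and fell with the siRNA. EIF2AK2 encodes PKR, the eIF2α kinase that binds double-stranded RNA. It was 8, 8.24 and 8.35 on the mimic arrays, 6.70, 6.87 and 6.83 on the siRNA arrays, 7.47, 7.29 and 6.97 on NC1 4 to 6, and 7.71, 7.61 and 7.18 on NC1 1 to 3. Every mimic array was above, and every siRNA array below, every NC1 array. EIF2AK2 rose with the mimic against all NC1 arrays (log2 difference 0.83, SE 0.14, adjusted p = 0.00999), over NC1 4 to 6 (0.96, adjusted p = 0.000912) and over NC1 1 to 3 (0.70, adjusted p = 0.00615). It fell with the siRNA against all NC1 arrays (-0.57, SE 0.14, adjusted p = 0.0356) and against NC1 1 to 3 (-0.70, adjusted p = 0.0101), and the difference from NC1 4 to 6 was -0.44 (adjusted p = 0.0624). Mimic minus siRNA was 1.4 (SE 0.16, adjusted p = 0.00112). Of the 19 genes measured in that list, the mimic gave 1 higher against NC1 4 to 6 (3.49% of all genes called) and 4 higher against NC1 1 to 3 (8.55%), among them EIF2S1, the eIF2α subunit itself (0.66, SE 0.12, adjusted p = 0.0024). The siRNA gave 1 higher and 4 lower against NC1 4 to 6 (11.4% of all genes called) and 1 lower against NC1 1 to 3 (5.70%). The lists here and below were drawn up for the pathway with earlier results of these arrays known, and their counts are descriptions.

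ATF4's targets for amino acid synthesis and transport gave the most calls of the lists for the mimic against all NC1 arrays. Of 17 measured genes, 4 were higher and 0 lower against all NC1 arrays (1.04% of all genes called), with a median of 0.21 against -0.01 over all genes. The mimic gave 5 higher and 0 lower against NC1 4 to 6 (3.49% of all genes called), and 6 higher and 0 lower against NC1 1 to 3 (8.55%). With the siRNA, 0 were higher and 1 was lower against all NC1 arrays (4.01%), with a median of -0.08, 3 were lower against NC1 4 to 6 (11.4%) and 1 was lower against NC1 1 to 3 (5.70%). SLC7A5, the light chain of a transporter of branched and aromatic amino acids, was 7.30, 7.01 and 7.05 on the mimic arrays, 6.60, 6.43 and 6.45 on the siRNA arrays, 6.49, 6.60 and 6.55 on NC1 4 to 6, and 6.60, 6.44 and 6.41 on NC1 1 to 3. The mimic arrays lay above all others and the remaining groups overlapped. SLC7A5 rose with the mimic by 0.60 against all NC1 arrays (SE 0.08, adjusted p = 0.00348), by 0.57 against NC1 4 to 6 and by 0.63 against NC1 1 to 3.

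SLC3A2, the heavy chain that partners both SLC7A5 and SLC7A11, was 7.13, 7.02 and 6.92 on the mimic arrays, 6.51, 6.50 and 6.58 on the siRNA arrays, 6.52, 6.65 and 6.45 on NC1 4 to 6, and 6.69, 6.65 and 6.69 on NC1 1 to 3. It rose with the mimic (log2 difference from all NC1 arrays 0.42, SE 0.08, adjusted p = 0.021), again with the mimic arrays above all others. SLC7A11, the cystine transporter that feeds glutathione synthesis, was 9.28, 9.30 and 9.19 on the mimic arrays, 8.24, 8.19 and 8.26 on the siRNA arrays, 8.88, 8.93 and 8.67 on NC1 4 to 6, and 8.23, 8.27 and 8.06 on NC1 1 to 3. It rose with the mimic by 0.43 against NC1 4 to 6 (adjusted p = 0.0138) and by 1.07 against NC1 1 to 3 (adjusted p = 3.56e-06), and unlike the 5 called members it was higher in NC1 4 to 6 than in NC1 1 to 3 (0.64, SE 0.09, adjusted p = 0.000303). ALDH1L2, a mitochondrial enzyme of folate metabolism, rose by 0.47 against all NC1 arrays (SE 0.10, adjusted p = 0.0303). PSPH, the last enzyme of serine synthesis, fell with the siRNA by 0.46 against all NC1 arrays (SE 0.08, adjusted p = 0.00685), by 0.52 against NC1 4 to 6 and by 0.40 against NC1 1 to 3.

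**Figure D3:**
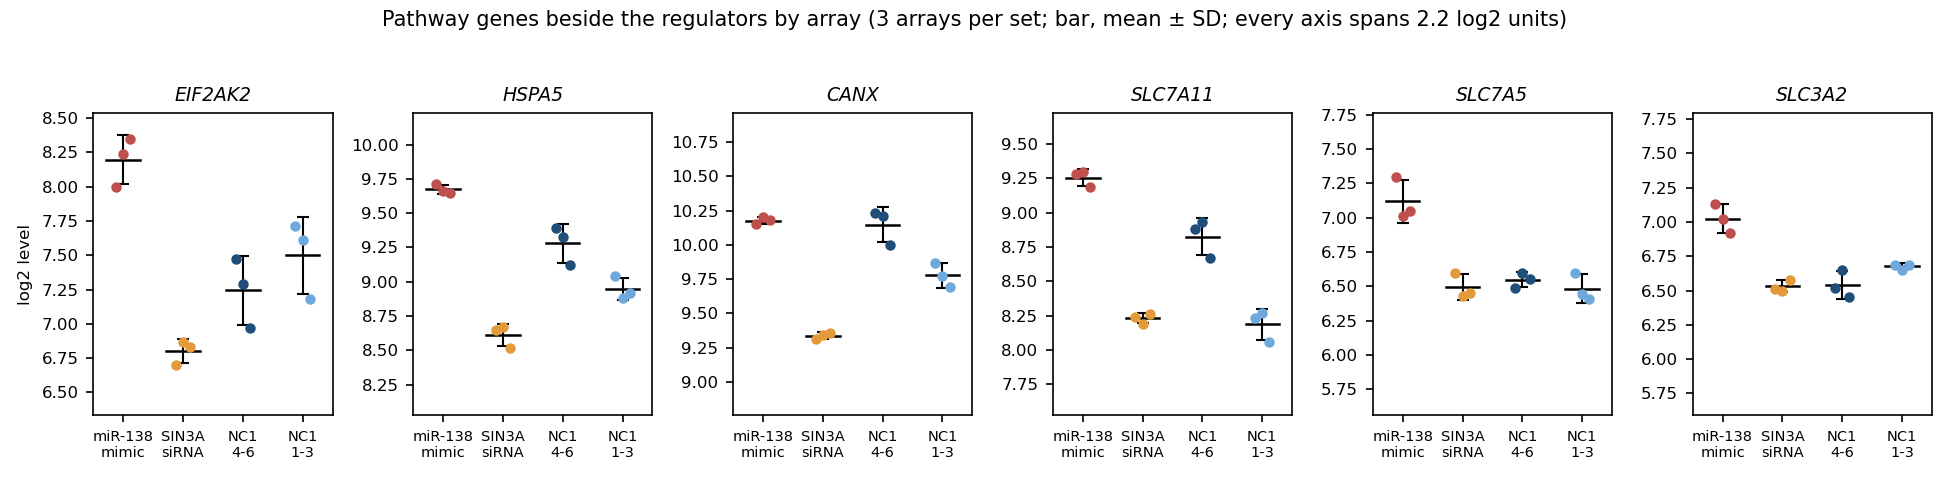
Log2 level on every array of genes of the pathway outside the 10, with the groups in the order miR-138 mimic, SIN3A siRNA, NC1 4 to 6 and NC1 1 to 3. Points are arrays, and bars are group means ± SD (n = 3 each). The mimic points of EIF2AK2, HSPA5, SLC7A11, SLC7A5 and SLC3A2 lie above all other points, and the siRNA points of EIF2AK2, HSPA5 and CANX lie below all others.

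The aminoacyl-tRNA synthetases, which charge transfer RNAs with amino acids and include many ATF4 targets, had 13 measured genes. With the mimic, 3 were higher against NC1 4 to 6 (CARS1, WARS1 and GARS1), where 3.49% of all genes were called, 2 were higher against NC1 1 to 3 (NARS1 and SARS1), where 8.55% were called, and 0 were called against all NC1 arrays, where 1.04% were called. With the siRNA, 1 was lower against all NC1 arrays (4.01% of all genes called), 1 was higher and 1 lower against NC1 4 to 6 (11.4%), and 1 was lower against NC1 1 to 3 (5.70%). IARS1, the isoleucine enzyme, fell with the siRNA by 0.69 against all NC1 arrays (SE 0.12, adjusted p = 0.00655), by 0.73 against NC1 4 to 6 and by 0.66 against NC1 1 to 3. It was 7.54, 7.64 and 7.56 on the mimic arrays, 7.01, 6.92 and 6.84 on the siRNA arrays, 7.70, 7.73 and 7.53 on NC1 4 to 6, and 7.88, 7.67 and 7.18 on NC1 1 to 3. Every siRNA array was below every array of the other groups.

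ATF4-linked regulators and secreted factors also differed between the control parts: of 16 measured, 1 was higher and 6 lower in NC1 4 to 6 than in NC1 1 to 3 (10% of all genes called), with a median of -0.20. The mimic gave 3 higher and 1 lower against NC1 4 to 6 (3.49% of all genes called) and 2 higher and 4 lower against NC1 1 to 3 (8.55%). The siRNA gave 2 higher against NC1 4 to 6 (11.4%) and 1 higher and 3 lower against NC1 1 to 3 (5.70%). CEBPG, a C/EBP family partner of ATF4, was 5.98, 6.10 and 6.03 on the mimic arrays, 5.97, 5.99 and 6.02 on the siRNA arrays, 5.49, 5.67 and 5.57 on NC1 4 to 6, and 6.12, 6.26 and 6.12 on NC1 1 to 3. The treated arrays lay between the control parts, as for XBP1. CEBPG was lower in NC1 4 to 6 than in NC1 1 to 3 (-0.59, SE 0.08, adjusted p = 0.000245) and rose against NC1 4 to 6 with the mimic (0.46, adjusted p = 0.0043) and with the siRNA (0.42, adjusted p = 0.00339). EIF4EBP1, a repressor of cap-dependent translation, fell with the mimic against all NC1 arrays (-0.48, SE 0.08, adjusted p = 0.0118) and differed by -0.50 from NC1 4 to 6 and by -0.46 from NC1 1 to 3, both called.

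The immediate early genes, which many stimuli induce within a short time, also differed between the control parts. Of 16 measured, 0 were higher and 5 lower in NC1 4 to 6 than in NC1 1 to 3 (10% of all genes called), with a median of -0.13. DUSP1 (-0.58, SE 0.13), CCN1 (-0.54, SE 0.11), JUN (-0.52, SE 0.09) and MYC (-0.44, SE 0.10) were among the lower. The part of these genes in the differences of the 10 was not tested. With the siRNA, 5 were higher and 0 lower against NC1 4 to 6, where 11.4% of all genes were called. The siRNA gave 0 called against NC1 1 to 3 (5.70% of all genes) and 0 against all NC1 arrays (4.01%). With the mimic, 1 was higher and 1 lower against NC1 4 to 6 (3.49% of all genes called), and 1 was higher and 2 lower against NC1 1 to 3 (8.55%). EGR1 fell with the mimic by 0.50 against all NC1 arrays (SE 0.09, adjusted p = 0.0184).

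Among the targets of XBP1 and ATF6, HSPA5 rose with the mimic and fell with the siRNA. HSPA5, the ER chaperone BiP, was 9.71, 9.66 and 9.65 on the mimic arrays, 8.65, 8.67 and 8.52 on the siRNA arrays, 9.39, 9.33 and 9.12 on NC1 4 to 6, and 9.04, 8.88 and 8.92 on NC1 1 to 3. The groups did not overlap: mimic arrays were highest, then NC1 4 to 6, then NC1 1 to 3, with siRNA arrays lowest. HSPA5 rose with the mimic (0.56 against all NC1 arrays, SE 0.11, adjusted p = 0.0233; 0.39 against NC1 4 to 6; 0.72 against NC1 1 to 3). It fell with the siRNA (-0.50 against all NC1 arrays, SE 0.11, adjusted p = 0.0194), and by 0.67 against NC1 4 to 6 and 0.33 against NC1 1 to 3. Mimic minus siRNA was 1.06 (SE 0.13, adjusted p = 0.00112).

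CANX, calnexin, a lectin chaperone of glycoprotein folding, was 10.15, 10.20 and 10.18 on the mimic arrays, 9.31, 9.34 and 9.36 on the siRNA arrays, 10.23, 10.21 and 10 on NC1 4 to 6, and 9.87, 9.77 and 9.69 on NC1 1 to 3. The siRNA arrays were below all others, and the mimic arrays overlapped NC1 4 to 6. CANX fell with the siRNA by 0.62 against all NC1 arrays (SE 0.11, adjusted p = 0.00795), by 0.81 against NC1 4 to 6 and by 0.44 against NC1 1 to 3. DERL1, a part of the machinery that takes misfolded proteins out of the ER, fell with both treatments, by 0.40 with the mimic (SE 0.09, adjusted p = 0.0468) and by 0.46 with the siRNA (SE 0.09, adjusted p = 0.0116) against all NC1 arrays. SEC31A, a coat protein of vesicles that leave the ER, rose with the siRNA (0.43, SE 0.10, adjusted p = 0.0295).

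Of 27 measured targets of XBP1 and ATF6, 1 was higher and 1 lower with the mimic against all NC1 arrays (1.04% of all genes called), and 1 was higher and 4 lower with the siRNA (4.01%). The mimic gave 2 higher and 1 lower against NC1 4 to 6 (3.49% of all genes called), with a median of 0.05. It gave 8 higher and 2 lower against NC1 1 to 3 (8.55%), with a median of 0.12, HYOU1, an ER chaperone (0.65), and SEL1L, of the ER degradation machinery (0.60), among the higher. Against NC1 4 to 6 the siRNA gave 4 higher and 10 lower (11.4% of all genes called), with a median of -0.20, and against NC1 1 to 3 it gave 1 higher and 3 lower (5.70%), with a median of -0.10. In NC1 4 to 6 against NC1 1 to 3, 8 were higher and 2 lower (10% of all genes called), with a median of 0.14, the opposite sign to the median of the 10 genes. Within that count PDIA4 (0.63), PDIA6 (0.54) and MANF (0.49), which fold or stabilise ER proteins, were higher and SERP1, which protects membrane proteins under stress, was lower (-0.71, SE 0.08, adjusted p = 4.56e-05).

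A further list held other stress sensors and ER membrane transcription factors, with the enzymes that process them. Of its 10 measured genes, 0 were called against all NC1 arrays with the mimic (1.04% of all genes called) or with the siRNA (4.01%). In NC1 4 to 6, 2 were higher than in NC1 1 to 3, where 10% of all genes were called: RTCB, the ligase that rejoins spliced XBP1 RNA (0.55, SE 0.09, adjusted p = 0.000824), and MBTPS2, a protease that cleaves ATF6 (0.39, SE 0.10, adjusted p = 0.0248). RTCB was also higher against NC1 1 to 3 with the mimic (0.80, adjusted p = 4.73e-05) and with the siRNA (0.35, adjusted p = 0.033), and MBTPS2 was lower with the siRNA against NC1 4 to 6 (-0.45, adjusted p = 0.00894). Of 9 cell death genes downstream of DDIT3, 1 was higher with the mimic against all NC1 arrays (1.04% of all genes called) and 0 were called with the siRNA (4.01%). The gene was MCL1, an inhibitor of apoptosis (0.42, SE 0.09, adjusted p = 0.0432). With the mimic, 1 was higher against NC1 4 to 6 (3.49% of all genes called), MCL1, and 4 were higher against NC1 1 to 3 (8.55%): ERO1A, an oxidase of ER protein folding (0.70), BAK1, which promotes apoptosis (0.57), BCL2L1, which inhibits it (0.48), and MCL1 (0.34). With the siRNA, 1 was higher against each part, BCL2L11 against NC1 4 to 6 (0.34; 11.4% of all genes called) and ERO1A against NC1 1 to 3 (0.44; 5.70%).

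**Figure D4:**
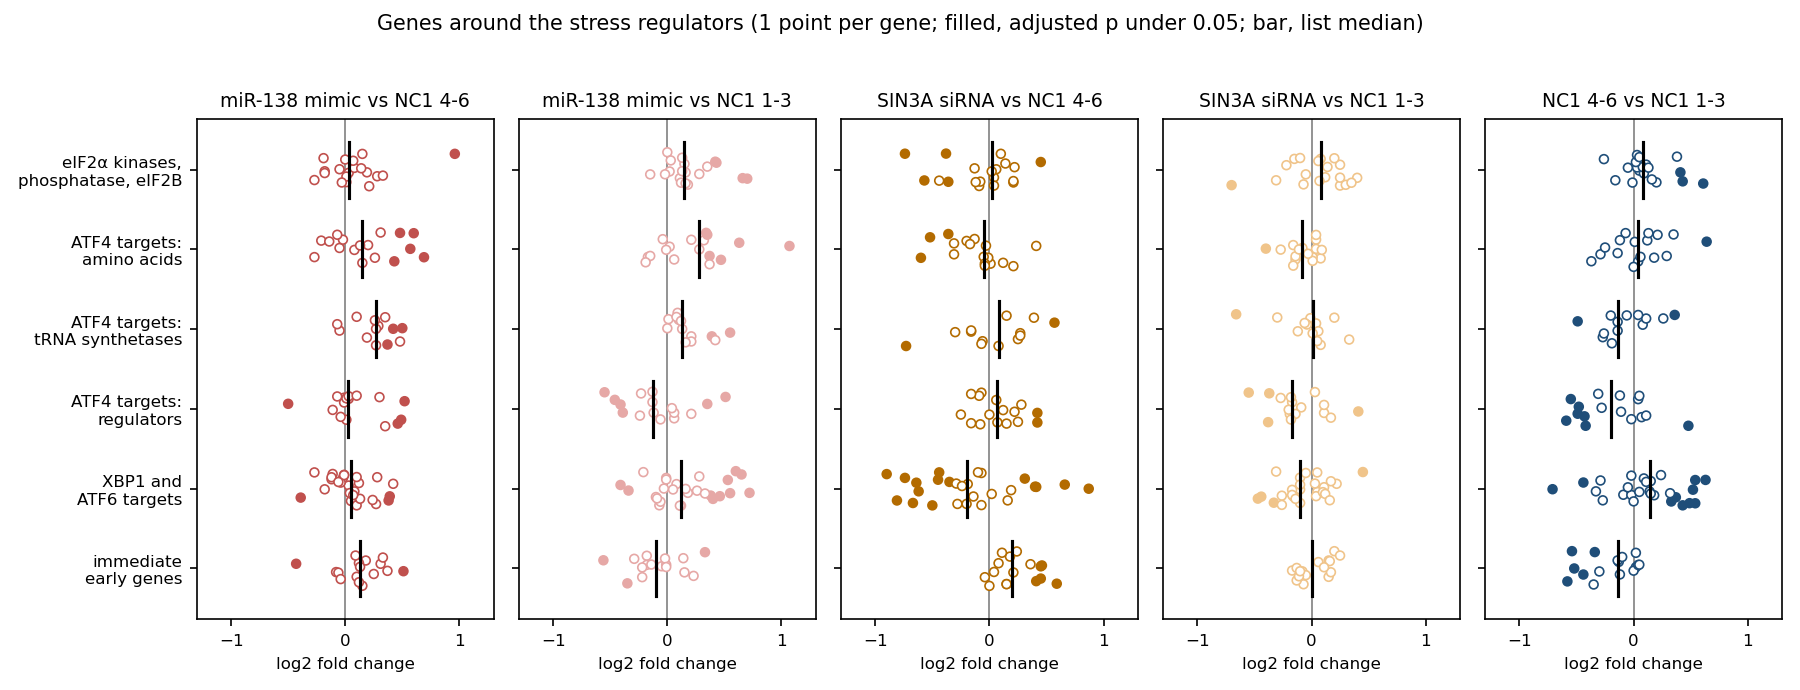
Log2 differences of the genes of each pathway list in the comparisons with each part of NC1 and between the NC1 parts. Each point is a gene, filled points passed the limma threshold, and the bar is the list's median. The median of the amino acid list is 0.15 for the mimic over NC1 4 to 6 and 0.28 over NC1 1 to 3, and that of the XBP1 and ATF6 targets is -0.20 for the siRNA against NC1 4 to 6.

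For the 3 genes of the 10 that varied most over the arrays, the genes with the most similar profile were listed by Pearson r over the 12 arrays, which share cell line, platform and the division of the controls. For PPP1R15A (SD 0.33) they were RSAD2 (0.942), OAS2 (0.941), SAMHD1 (0.932), SQSTM1 (0.928) and OAS1 (0.923). For DDIT3 (SD 0.30) they were MYD88 (0.931), WFDC10B (0.929), TRIB3 (0.927), MYO16 (0.923) and IFITM3 (0.912). For ASNS (SD 0.27) they were KYNU (0.954), RND3 (0.927), RASGRP3 (0.926), IFI16 (0.923) and CHD2 (0.919).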

How the data were processed

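RNA of 12 Calu-3 samples was measured on whole-transcript arrays. The deposited values are log2 levels, 1 per probe set and array, and were used as deposited. RMA and Partek 6.3 were used per the submitters' processing notes, with no statement of which step each did. It has no detection calls. Of its 33297 probe sets, 12083 have no gene symbol, 1753 have several and 19461 have 1. Among the last, the brightest on average over all arrays stood for each of the 18418 genes, and no dim gene was removed. The number of value columns that belong to no sample was 0.

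limma 3.58.1 in R 4.3.3 fitted 3 group means (9 residual degrees of freedom), and 4 means with NC1 1 to 3 and NC1 4 to 6 apart (8 residual degrees of freedom). Adjusted p-values are Benjamini-Hochberg over all genes, and SE and 95% intervals come from these fits. The fits were tested on simulated data. The precision is limited by 3 arrays per group, and the median SE was 0.10 against all NC1 arrays.

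The members and lists were chosen with earlier results of these data known. The genes named were the 10 members, SIN3A, up to 4 genes of each list with the smallest adjusted p, and the 5 most similar genes for the 3 most variable members. Some list genes were not analysed here. Alternatives were a second quantile normalization, median centring, the mean over probe sets, genes above the median level, a variance trend, the replicate block, the array set as a block, and leaving out each array. Sequences are RefSeq's.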

Additional observations from a re-analysis of the deposited data

How the results depend on the processing

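The count of the 10 genes called against all NC1 arrays was 0 with the siRNA under every alternative run. With the mimic it was 0, and ranged from 0 to 1 without each array. It became 2 with the array set (NC1 4 to 6 with the mimic, NC1 1 to 3 with the siRNA, inferred from the values) as a block. With that block, the mimic comparison is the one with NC1 4 to 6 given above. The siRNA comparison is then the one with NC1 1 to 3. Neither is a separate check. Mimic against siRNA went up to 3 with the array set as a block, where DDIT3 reversed to 0.69, against -0.06 without the block. That value is the difference of differences given above, so it is the same model and not a separate check. With the replicate block, mimic against siRNA gave 1 called gene, PPP1R15A (0.48, adjusted p = 0.0216), and 830 genes in all against 289, and the mimic against NC1 gave 1281 genes against 192. Same-numbered arrays of the mimic, the siRNA and NC1 1 to 3 correlated in their deviations from the group mean at -0.10 to 0.029. The mimic arrays were not set against NC1 4 to 6 in this way, so whether samples were paired was not decided. The block uses only the NC1 arrays numbered as the treated ones. Against NC1 1 to 3, the second quantile normalization gave 3 called genes with the siRNA (ATF4, ASNS and XBP1, lower) and 2 with the mimic (DDIT3 and XBP1, lower), and genes above the median level gave 2 with the mimic (DDIT3 lower, PPP1R15A higher). With median centring the 1 gene called for the mimic was PPP1R15A in place of DDIT3. Without each array the counts were 0 to 1 for the siRNA and 0 to 3 for the mimic against NC1 1 to 3, and 1 to 4 for the siRNA against NC1 4 to 6. The cause of these moves was not tested. The share of all genes called is not given here for the second quantile normalization, genes above the median level or median centring. Counts of the 10 under those settings, here and below, therefore have no share to be read against. The calls for PPP1R15A and ASNS with the mimic against NC1 4 to 6, and for DDIT3, ASNS, PPP1R15A and XBP1 between the NC1 parts, held without each array. The count for the mimic against NC1 4 to 6 was 2 or 3 under the alternatives run, and the gene added was DDIT3, or ATF3 without NC1 6. Between the NC1 parts the second quantile normalization gave 6 called genes, ATF4 being added, against 5. Over all genes, the siRNA gave 165 to 254 calls against NC1 without 1 of its arrays, against 739. The mimic gave 39 to 65 without 1 of its arrays, against 192. With the array set as a block the mimic gave 642, which is its count against NC1 4 to 6. Between the NC1 parts, 1062 genes were called without NC1 5, against 1850. The array file gives no background signal, so levels near the lowest of the array cannot be told from background.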
